A study of Mus musculus with 40 samples.

Results

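Mast cells sorted from the skin of mice treated to remove MrgprD sensory neurons were set against mast cells grown from the mouse peritoneum, to describe how cells taken from a tissue and cells kept in culture differ. The members are the 4 sorted DTR libraries and the 4 libraries of peritoneal mast cells held 6 h in vehicle, 8 of the 40 libraries of the series. Genes of chromosomes X and Y were left out (1245 of 23812 rows), and 8710 autosomal genes were tested. The sorted DTR group was taken for its low transcripts of other leukocytes, so levels of leukocyte markers are given as a description, without a test.

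The DTR mice came from a cross of 2 lines. One carries the allele Gt(ROSA)26Sortm1(HBEGF)Awai on C57BL/6, in which Cre switches on the diphtheria toxin receptor, and the other, with the allele Mrgprdtm1.1(cre)And on B6.129S1(Cg), makes Cre from the Mrgprd locus, so that toxin acts on the sensory neurons that express MrgprD. They received diphtheria toxin for 3 to 4 weeks, by the intraperitoneal route, together with the solvent acetone and olive oil. Their samples are labelled Epidermal, whereas the series text describes whole ear. The cultures came from C57BL/6J mice and spent 6 h in glutamate-free Tyrode's buffer, a salt solution, with vehicle. A second pair of groups, which shares no library with the first, was used beside it: mast cells sorted from MrgprdCre mice, which carry the Mrgprdtm1.1(cre)And allele without the toxin receptor, over peritoneal mast cells after 48 h with vehicle, 4 libraries each. Whether the Cre mice received toxin is stated differently by the protocol text (toxin) and the treatment label (solvent alone). Sorted Cre cells held higher sums of neutrophil, macrophage, eosinophil and basophil markers than sorted DTR cells, as given below. Age, sex, the markers used for the sort and the pooling of animals are not given in the sources used here. Tissue of origin, culture, toxin, strain and the sort itself all differ between the groups and cannot be told apart. The replicates are numbered samples with no statement that they are separate animals or cultures, so p-values measure the spread between these samples, which may be technical.

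Mast cells are granulated immune cells of barrier tissues that need stem cell factor acting on the receptor Kit. Their granules hold proteases, histamine and heparin bound to the core protein serglycin, and they release these when IgE on its receptor is crosslinked or when peptides act on Mas-related receptors. Connective tissue mast cells of skin and peritoneum both carry chymases, tryptases and the carboxypeptidase Cpa3. They can also make lipid mediators and chemokines and can start transcription of immediate early genes, a class switched on within minutes of a stimulus.

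Expression is given as FPKM (fragments per kilobase of transcript, scaled to the number of fragments), which adjusts for transcript length, so levels can be compared between genes. Both groups carried the mast cell signature. The summed FPKM of the mast cell identity list lay between 21400 and 35200 in sorted DTR cells and between 79900 and 82800 in 6 h cultures. The libraries differed in overall scale, however. FPKM summed to 117574 to 191722 in sorted DTR libraries and to 378212 to 389859 in 6 h cultures, with DTR libraries 3 and 4 lowest. The 10 highest genes held 19.3% to 20.3% of that sum in sorted DTR libraries and 27.2% to 27.5% in cultures. Read counts were not used, so absolute depth is unknown. From the spacing of values under 0.1 FPKM, DTR libraries 2, 3 and 4 had 0.99, 0.57 and 0.79 times the depth of DTR library 1. Pearson correlations of log2(FPKM + 1) across genes, which are not independent replicates, were 0.982 to 0.986 among sorted DTR libraries, 0.993 to 0.997 among cultures, and 0.766 to 0.783 between the groups.

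A gene was said to pass when limma, a moderated linear model on log2(FPKM + 1), gave a Benjamini-Hochberg adjusted p under 0.05 over the 8710 genes and the log2 change was at least 1 either way. By this rule 3014 genes passed, or 34.6%, of which 673 (7.73%) were higher and 2341 (26.9%) lower in sorted DTR cells. An adjusted p under 0.05 at any fold was reached by 71.8% of genes, and the groups did not overlap in 67.1% (18.1% higher and 49% lower). The split depended on the scaling. It was 1199 higher and 1462 lower after median centring, 1189 and 1214 after quantile normalization, and 3587 (41.2%) and 804 (9.23%) after each library was rescaled to the same sum (TPM scale). Counts of a gene list are to be read against these shares of all genes, 7.73% higher and 26.9% lower as deposited and 41.2% higher and 9.23% lower on the TPM scale. Over all genes the log2 change had a median of -0.40 as deposited and 0.78 on the TPM scale. Changes of single genes are therefore printed as the log2 change relative to the median of -0.40, with the SE of the fit, and the adjusted p refers to the values as deposited. A gene is called stable when it passed in the same direction under all 4 scalings, which held for 672 genes higher (7.72%) and 727 lower (8.35%). The other scalings raised the median log2 change, to -0.03, 0.033 and 0.783. Of the 673 genes higher as deposited 672 were stable, so the label was near certain for them and says little about them. Of the 2341 lower genes 727 were stable.

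**Figure D1:**
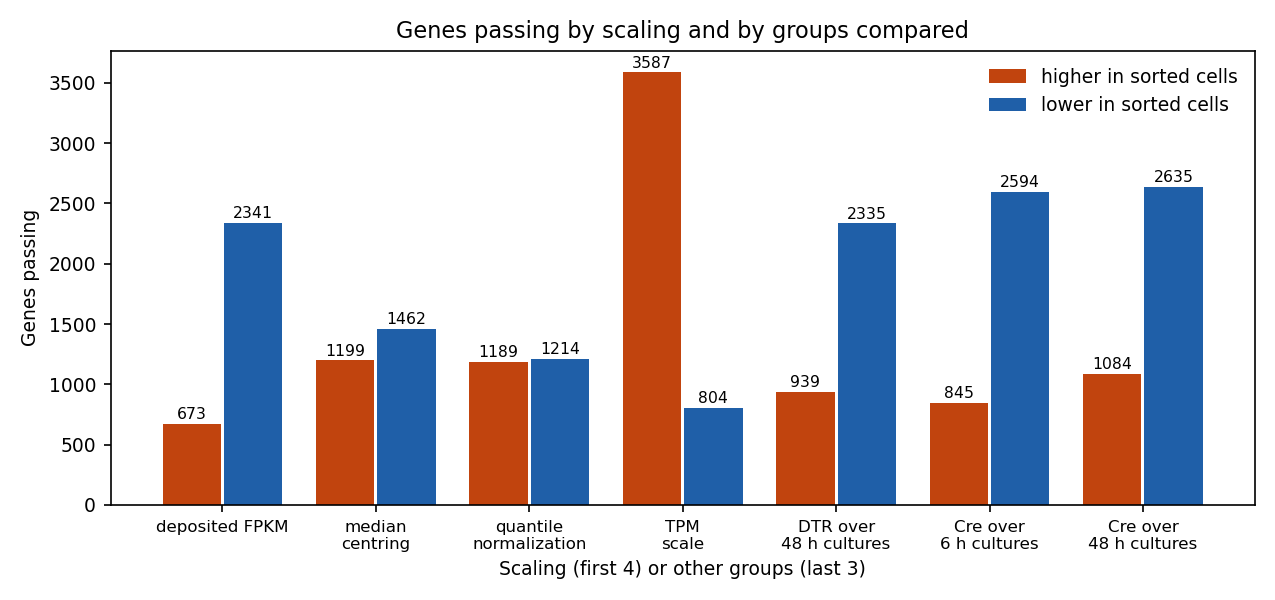
Genes passing higher (red) or lower (blue) in sorted cells, by 4 scalings of the same 8 libraries and, at right, by the other groups compared with deposited FPKM. With deposited FPKM 673 genes were higher and 2341 lower, and on the TPM scale 3587 were higher and 804 lower.

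The genes that define mast cells were present in both groups but at different levels. Of 29 tested identity genes 5 were higher, 12 lower and 12 did not pass, against 7.73% higher and 26.9% lower of all genes. The list median was -0.36 relative to all genes, and 1 member met the filter through the cultures alone. Stable calls were 5 higher and 6 lower. On the TPM scale 10 were higher and 7 lower, against 41.2% and 9.23% of all genes. Kit, the stem cell factor receptor, had 232, 241, 161 and 148 FPKM in the sorted DTR libraries and 428, 420, 349 and 389 FPKM in the cultures. All 4 sorted libraries were lower, and the gene passed with a relative log2 change of -0.64 (SE 0.22, adjusted p = 3.95e-05), but its direction turned under quantile normalization and the TPM scale. The IgE receptor genes moved apart. Fcer1a, the chain that binds IgE, had 396, 342, 215 and 205 FPKM in sorted DTR cells and 2900, 2970, 3120 and 3100 FPKM in cultures (relative log2 -3.03, SE 0.24, adjusted p = 1.44e-17, stable). Ms4a2, the beta chain of the same receptor, had 387, 414, 296 and 288 FPKM in sorted DTR cells against 170, 171, 156 and 162 FPKM in cultures. It was higher in all 4 sorted libraries (relative log2 1.46, adjusted p = 2.2e-05, stable), while its log2 change as deposited was 0.99 without DTR library 1 and 0.96 without library 2, under the fold asked for. Of the 26 tested genes of the IgE receptor and its signalling, 1 was higher and 7 were lower, 1 and 2 of them stable, and the share called lower is that of all genes, 26.9%. On the TPM scale 10 were higher and 2 lower, against 41.2% and 9.23% of all genes.

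Transcription factors of the lineage were measured in both groups. Mitf, a master regulator of mast cells and melanocytes, averaged 8.23 ± 2.50 FPKM in sorted DTR cells and 13.9 ± 1.10 FPKM in cultures (SD, n = 4 each) and did not reach the fold asked for. Gata2, needed for mast cell development, averaged 96.4 ± 25.9 FPKM in sorted DTR cells and 312 ± 14 FPKM in cultures. It passed as deposited (relative log2 -1.32, adjusted p = 1.14e-09) and not under quantile normalization or the TPM scale. Among 31 tested transcription factors 6 were higher, all stable, and 10 lower, 3 of them stable. Of the 31, 3 met the filter through the sorted cells alone, Klf4 among them, and 2 through the cultures alone. Of the 26 others 5 were higher and 8 lower, against 7.73% and 26.9% of all genes. On the TPM scale 13 of the 31 were higher and 5 lower, against 41.2% and 9.23% of all genes. Nr4a1, an orphan nuclear receptor and immediate early gene, had 94.3, 47.4, 23.7 and 33.4 FPKM in sorted DTR cells and 1.40 to 1.64 FPKM in cultures. Klf4, a zinc finger factor, averaged 4.31 FPKM in sorted DTR cells and 0.0154 FPKM in cultures. Bhlhe40, a basic helix-loop-helix repressor, was at 1.6 to 3.66 FPKM in sorted DTR cells and 72.7 to 86.1 FPKM in cultures (relative log2 -4.18, adjusted p = 2.68e-25, stable). Nfe2, a leucine zipper factor of megakaryocytes, was at 0.978 to 2.45 FPKM in sorted DTR cells and 52.4 to 55.9 FPKM in cultures, and in sorted Cre cells it averaged 61.7 FPKM.

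Granule proteases moved in both directions. Of 13 tested protease genes 3 were higher, all stable, and 7 lower, 2 of them stable, against 7.73% and 26.9% of all genes. The relative median was -0.66. The 7 lower include Prss34 and Mcpt8, which are also basophil markers. On the TPM scale 5 were higher and 3 lower, against 41.2% and 9.23% of all genes. Mcpt4, the chymase closest in activity to human chymase (mm9 chromosome 14, 56678580 to 56681147), had 4610, 4290, 2730 and 2930 FPKM in sorted DTR libraries and 856, 798, 777 and 821 FPKM in cultures. Every sorted library was above every culture (relative log2 2.53, SE 0.24, adjusted p = 8.09e-11, stable). Cma1, a neighbouring chymase (mm9 chromosome 14, 56560287 to 56563498), had 9450, 8960, 5790 and 5960 FPKM in sorted DTR cells and 17900, 17400, 16900 and 17300 FPKM in cultures. It passed as lower (relative log2 -0.83, adjusted p = 5.23e-05), and its direction turned under quantile normalization and the TPM scale.

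Ctsg, cathepsin G, averaged 243 ± 50.6 FPKM in sorted DTR cells and 36.9 ± 1.92 FPKM in cultures (SD, n = 4 each; relative log2 3.07, adjusted p = 4.89e-16, stable). Cma2, another chymase gene, averaged 32.1 FPKM in sorted DTR cells and 5.76 FPKM in cultures and was also stable. Tpsb2, a tryptase, had 8250, 7480, 4820 and 5360 FPKM in sorted DTR cells and 36600, 37800, 38600 and 40000 FPKM in cultures (relative log2 -2.19, adjusted p = 6.92e-12). It did not pass under quantile normalization. Gzmb, granzyme B, a protease better known from killer lymphocytes, had 1.78, 0.519, 0.283 and 0.293 FPKM in sorted DTR cells and 357, 349, 338 and 341 FPKM in cultures (relative log2 -7.33, SE 0.21, adjusted p = 3.27e-33, stable). Prss34, a serine protease of basophils and mucosal mast cells in mice, averaged 0.786 FPKM in sorted DTR cells and 493 FPKM in cultures, but 15.6 FPKM in 48 h cultures. Cpa3 averaged 4350 ± 844 FPKM in sorted DTR cells and 8270 ± 187 FPKM in cultures and did not reach the fold asked for, with a log2 change of -1.05 and -1.0 once DTR library 1 or 2 was left out. The chymase genes resemble each other, as do the tryptase genes, so reads may be split between them and levels within each family are uncertain.

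**Figure D2:**
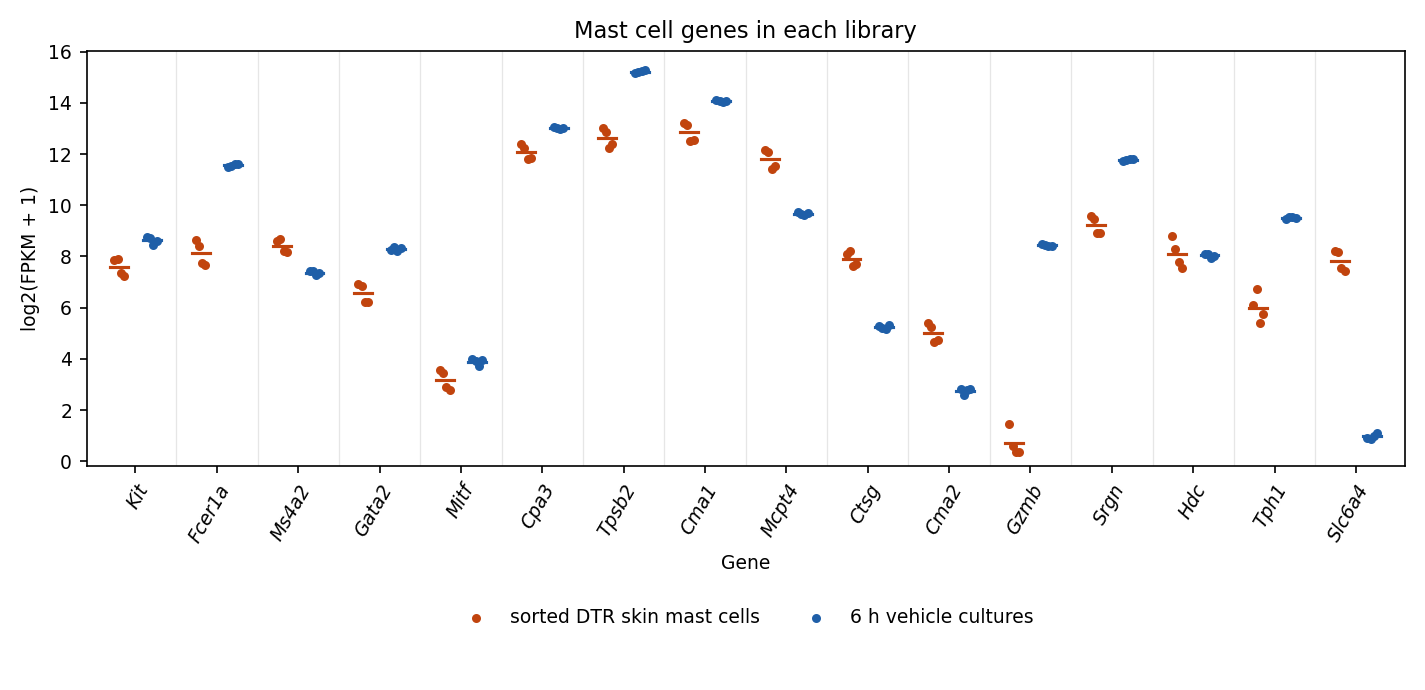
Log2(FPKM + 1) of 16 mast cell genes in each sorted DTR library (red) and 6 h culture library (blue), points for libraries and bars for their means. Mcpt4, Ctsg, Cma2, Ms4a2 and Slc6a4 lie higher in sorted DTR cells, Fcer1a, Tpsb2, Gzmb, Srgn and Tph1 lower, and Hdc overlaps.

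Handling of amines differed between its steps. Hdc, which makes histamine, had 442, 313, 222 and 186 FPKM in sorted DTR cells and 275, 275, 248 and 256 FPKM in cultures. The groups overlapped and the gene did not pass (adjusted p = 0.821), although it passed as higher under quantile normalization and the TPM scale. Slc6a4, the serotonin uptake transporter (mm9 chromosome 11, 76812098 to 76845845), had 299, 287, 185 and 172 FPKM in sorted DTR cells and 0.907, 0.811, 0.986 and 1.17 FPKM in cultures (relative log2 7.28, SE 0.20, adjusted p = 5.5e-32, stable). Tph1, the enzyme that starts serotonin synthesis, went the other way, with 67.6, 105, 40.8 and 53.3 FPKM in sorted DTR cells and 712 to 742 FPKM in cultures (relative log2 -3.11, adjusted p = 1.73e-18, stable). Gch1, which makes the cofactor Tph1 needs, averaged 15.1 ± 5.45 FPKM in sorted DTR cells and 76.4 ± 4.45 FPKM in cultures (SD, n = 4 each) and was lower and stable. Slc18a2, the vesicle transporter that loads amines into granules, averaged 103 FPKM in sorted DTR cells and 173 FPKM in cultures and did not pass.

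Srgn, serglycin, averaged 608 ± 147 FPKM in sorted DTR cells and 3520 ± 88.5 FPKM in cultures (SD, n = 4 each; relative log2 -2.16, adjusted p = 2.09e-13, stable). Of 21 tested genes of serglycin and glycosaminoglycan synthesis 3 were higher and 5 lower (stable 3 and 4), where all genes give 7.73% and 26.9%. On the TPM scale 12 were higher and 4 lower, where all genes give 41.2% and 9.23%. Hs3st1, a sulfotransferase of heparan sulfate, was at 4.04 to 11.5 FPKM in sorted DTR cells and 113 to 117 FPKM in cultures. Chst15, which adds a further sulfate to chondroitin sulfate, was at 2.22 to 4.01 FPKM in sorted DTR cells and 22.6 to 25.3 FPKM in cultures. Both were stable.

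Genes for arachidonic acid products included some near 0 in sorted DTR cells. Of 16 tested lipid mediator genes 7 met the expression filter through the cultures alone, so their direction was set by the filter. Of the 9 others 1 was higher and 3 lower, against 7.73% and 26.9% of all genes. Alox5, 5-lipoxygenase, the first enzyme of leukotriene synthesis (mm9 chromosome 6, 116360088 to 116411196), had 0.0434, 0.221, 0.305 and 0.0686 FPKM in sorted DTR cells and 249, 235, 214 and 220 FPKM in cultures (relative log2 -7.24, SE 0.18, adjusted p = 5.49e-35). Its partner Alox5ap, which presents arachidonic acid to the enzyme, had 4.68, 3.53, 2.64 and 2.56 FPKM in sorted DTR cells and 643, 635, 657 and 676 FPKM in cultures. Ltc4s, which makes leukotriene C4 from their product, averaged 0.978 FPKM in sorted DTR cells and 23 FPKM in cultures. Alox5 met the filter through the cultures alone, which set its direction.

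The prostanoid branch held the exception. Ptgs1, cyclooxygenase 1, was at 0.0545 to 0.162 FPKM in sorted DTR cells and 53.1 to 55.2 FPKM in cultures, and Tbxas1, thromboxane synthase, averaged 0.020 FPKM in sorted DTR cells and 52.4 FPKM in cultures. Hpgds, which makes prostaglandin D2, the main prostanoid of mast cells, was the 1 gene that was higher, with 46.3, 46.5, 35.2 and 37.6 FPKM in sorted DTR cells and 5.53 to 6.91 FPKM in cultures (relative log2 3.01, SE 0.18, adjusted p = 4.07e-17, stable). Pla2g7, which breaks down platelet activating factor, averaged 5.10 FPKM in sorted DTR cells and 672 FPKM in cultures. In the second pair Tbxas1, Alox5 and Pla2g7 were again lower in sorted cells, while Alox5ap, with means of 324 FPKM in sorted Cre cells against 619 FPKM in 48 h cultures, did not pass. Ptgs1 and Ltc4s were lower there too, but met the filter through the cultures alone, which set their direction.

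Receptors by which mast cells sense peptides and nucleotides changed in both directions. Of 18 tested genes 6 were higher and 7 lower, but 4 of the 18 met the filter through the sorted cells alone and 4 through the cultures alone. Of the 10 others 2 were higher and 3 lower, against 7.73% and 26.9% of all genes. On the TPM scale 10 of the 18 were higher and 6 lower, against 41.2% and 9.23% of all genes. Those higher included Mas-related receptors and both parts of a neuropeptide receptor. Mrgprb1 was at 225 to 336 FPKM in sorted DTR cells and 92.7 to 103 FPKM in cultures, and its relatives Mrgprb8 (15 to 24.3 FPKM in sorted DTR cells, 0 to 0.113 FPKM in cultures) and Mrgpra4 (22.8 to 35.8 FPKM in sorted DTR cells, 0.691 to 0.921 FPKM in cultures) were also higher. Calcrl and Ramp1, which together form the receptor for the sensory neuropeptide CGRP, averaged 11.3 ± 1.27 and 84.0 ± 21.7 FPKM in sorted DTR cells, against 0.678 ± 0.0465 and 10.9 ± 0.602 FPKM in cultures (SD, n = 4 each), with relative log2 changes of 3.27 and 3.21. Mrgprb1 and Ramp1 passed as higher in the second pair too. Mrgprb1 was at 65.3 to 89.1 FPKM in sorted Cre cells, under the 6 h cultures, and at 15.4 to 18 FPKM in 48 h cultures. Mrgprb8, Mrgpra4 and Calcrl met the filter through the sorted cells alone in both pairs, so their direction was set by the filter.

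Mrgprb2, the mouse receptor for basic secretagogues such as substance P, had 181, 188, 147 and 125 FPKM in sorted DTR cells and 86.9, 87.9, 86.6 and 89.0 FPKM in cultures. All 4 sorted libraries were higher, but the log2 change fell short of the fold asked for (relative log2 1.25, SE 0.20, adjusted p = 2.89e-04). It passed as higher after median centring, quantile normalization and on the TPM scale. The Mas-related genes lie in a cluster of close copies, so their levels relative to each other are uncertain. The receptors lower in sorted DTR cells were for nucleotides, adenosine and complement. P2ry14, a receptor for UDP sugars, was at 0.838 to 1.96 FPKM in sorted DTR cells and 64.4 to 68.8 FPKM in cultures. P2rx7, the ATP-gated channel, was at 1.41 to 2.12 FPKM in sorted DTR cells and 36.3 to 43 FPKM in cultures. C5ar1, the receptor for complement C5a, was at 0 to 0.197 FPKM in sorted DTR cells and 14.9 to 15.8 FPKM in cultures, and averaged 41.7 FPKM in sorted Cre cells.

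A list of inhibitory receptors and their relatives, which also holds activating ones such as Fcgr3, changed in both directions. Of 14 tested 5 were higher, all stable, and 4 lower, 2 of them stable, against 7.73% and 26.9% of all genes. Clec12b met the filter through the sorted cells alone and Cd300a through the cultures alone. Of the 12 others 4 were higher and 3 lower. On the TPM scale 10 were higher and 2 lower, against 41.2% and 9.23% of all genes. Clec12b, a C-type lectin with an inhibitory motif, had 68.5, 51.0, 40.6 and 42.5 FPKM in sorted DTR cells and 0 to 0.018 FPKM in cultures (relative log2 6.05, SE 0.18, adjusted p = 5.18e-30). Fcgr2b, the inhibitory IgG receptor, averaged 84.1 ± 18.8 FPKM in sorted DTR cells and 22.9 ± 2.05 FPKM in cultures (SD, n = 4 each), and Milr1, known as allergin-1, averaged 20.6 FPKM in sorted DTR cells and 6.88 FPKM in cultures. Cd300a, a receptor for phosphatidylserine, was at 0.284 to 0.579 FPKM in sorted DTR cells and 68.3 to 70.5 FPKM in cultures, and Cd300lf of the same family averaged 3.06 FPKM in sorted DTR cells and 17.3 FPKM in cultures. These 2 were lower and stable.

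Of 25 tested cytokine receptor genes 5 were higher and 9 lower (stable 5 and 7). Among them 3 met the filter through the sorted cells alone and 2 through the cultures alone. Of the 20 others 3 were higher and 7 lower, against 7.73% and 26.9% of all genes. On the TPM scale 14 of the 25 were higher and 7 lower, against 41.2% and 9.23% of all genes. Il1rl1, the IL-33 receptor, averaged 27.6 ± 11.3 FPKM in sorted DTR cells and 159 ± 11 FPKM in cultures, and Il4ra averaged 5.53 ± 1.53 FPKM in sorted DTR cells and 66.1 ± 3.36 FPKM in cultures (SD, n = 4 each). Both were lower and stable, as was Il27ra. Tnfrsf9, a costimulatory receptor (0.0642 to 0.401 FPKM in sorted DTR cells, 17.4 to 18 FPKM in cultures), was lower too. It met the filter through the cultures alone, which set its direction. Il6ra, the IL-6 receptor, was at 4.30 to 4.74 FPKM in sorted DTR cells and at 0 in 3 cultures and 0.014 FPKM in the other. Among 21 tested adhesion genes 2 were higher and 10 lower, but 2 met the filter through the sorted cells alone and 3 through the cultures alone. Of the 16 others 0 were higher and 7 lower, against 7.73% and 26.9% of all genes. On the TPM scale 7 of the 21 were higher and 6 lower, against 41.2% and 9.23% of all genes. Cd9, a tetraspanin, averaged 7.76 FPKM in sorted DTR cells and 564 FPKM in cultures, Cd34 averaged 3.27 FPKM in sorted DTR cells and 64.6 FPKM in cultures, and Pecam1 averaged 0.118 FPKM in sorted DTR cells and 30.6 FPKM in cultures. Pecam1 met the filter through the cultures alone, which set its direction.

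Secreted signals changed in both directions. Of 21 tested cytokine and chemokine genes 8 met the filter through the cultures alone and 1 through the sorted cells alone. Of the 12 others 3 were higher and 5 lower, against 7.73% and 26.9% of all genes. Ccl7, a monocyte chemokine, had 1920, 1470, 730 and 1020 FPKM in sorted DTR cells and 157 to 164 FPKM in cultures (relative log2 3.31, SE 0.24, adjusted p = 6.07e-15). Tnf, tumour necrosis factor, was at 7.18 to 17.2 FPKM in sorted DTR cells and 0.404 to 0.700 FPKM in cultures. Ccl1, a ligand of Ccr8, averaged 1.78 FPKM in sorted DTR cells and 42.9 FPKM in cultures. Ccl6 was at 0 to 0.205 FPKM in sorted DTR cells and 21.7 to 29.7 FPKM in cultures, Ccl3 was at 0 to 0.0465 FPKM in sorted DTR cells and 13.2 to 15.9 FPKM in cultures, and Ccl5 was listed at 0 in all 4 sorted DTR libraries and averaged 8.69 FPKM in cultures. In sorted Cre cells Ccl6 averaged 2920 FPKM and Ccl3 averaged 2370 FPKM. Both belong to the basophil marker list, whose sum of 5300 to 8850 FPKM in sorted Cre cells is largely theirs, and the part of other cells in these levels was not tested.

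**Figure D3:**
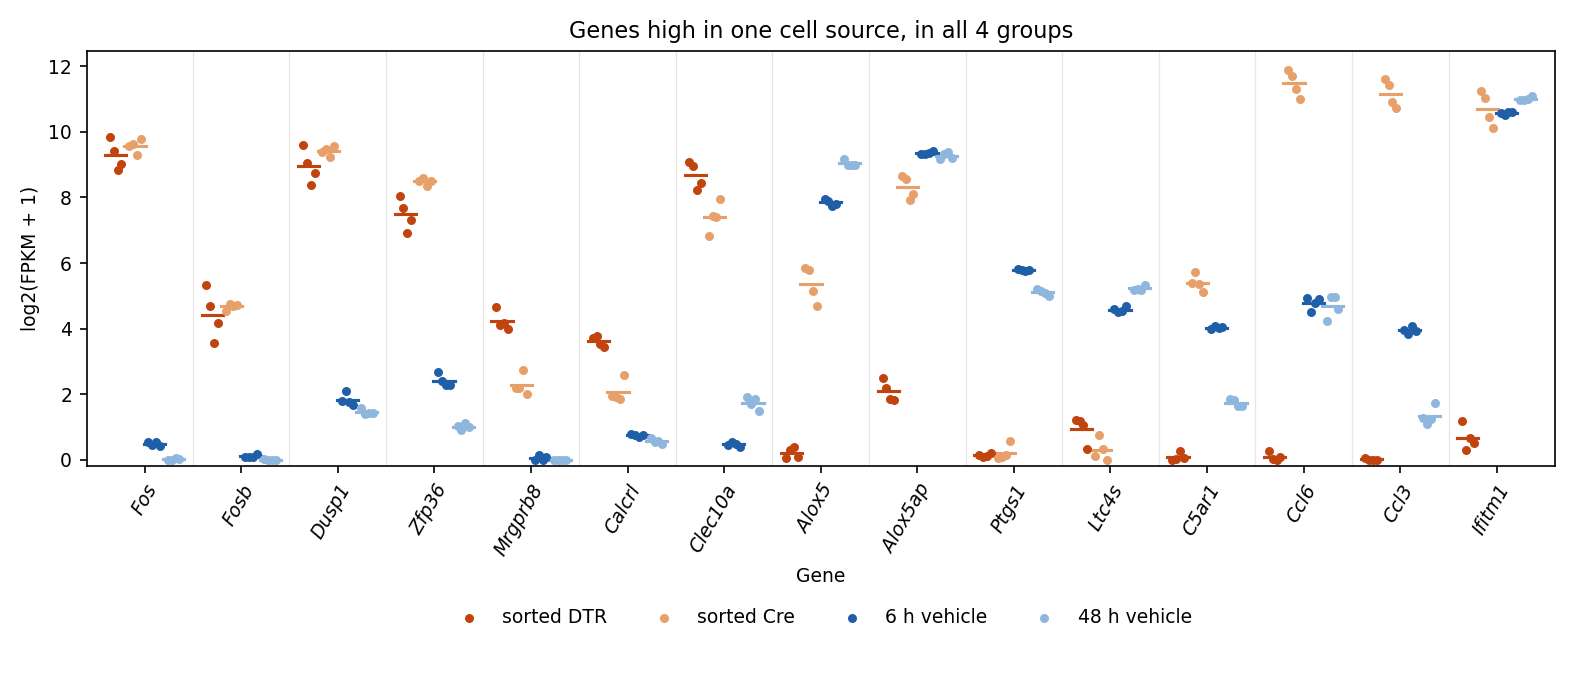
Log2(FPKM + 1) of 15 genes in the 4 libraries of each group: sorted DTR, sorted Cre, 6 h vehicle and 48 h vehicle, bars for means. Fos, Fosb, Dusp1, Zfp36, Mrgprb8, Calcrl and Clec10a are high in both sorted groups, whereas Ccl6, Ccl3, C5ar1 and Ifitm1 are high in sorted Cre but not in sorted DTR cells.

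Immediate early genes were mostly higher in sorted DTR cells. Of 34 listed genes 9 were below the filter. Of the 25 tested 18 were higher and 3 lower, against 7.73% and 26.9% of all genes. All 18 higher calls were stable, as were 672 of the 673 over all genes, and 2 of the 3 lower calls were stable. The median was 2.51 relative to all genes, and 4 of the 25 met the filter through the sorted cells alone and 1 through the cultures alone. Of the 20 others 14 were higher and 2 lower. Fos, a subunit of the AP-1 transcription factor (mm9 chromosome 12, 86814850 to 86818219), had 911, 684, 459 and 521 FPKM in sorted DTR cells and 0.466, 0.370, 0.464 and 0.345 FPKM in cultures (relative log2 9.19, SE 0.20, adjusted p = 1.27e-35). It was the gene with the largest rise of those the naming rule admits. Fosb, a relative of Fos, had 39, 24.6, 10.7 and 17 FPKM in sorted DTR cells and 0.0528 to 0.145 FPKM in cultures. Fos and Fosb met the filter through the sorted cells alone, so their direction was set by the filter. Dusp1, a phosphatase that turns off MAP kinases, had 782, 532, 333 and 430 FPKM in sorted DTR cells and 2.18 to 3.31 FPKM in cultures. Zfp36, which speeds decay of Tnf and other messages, had 261, 205, 121 and 157 FPKM in sorted DTR cells and 3.90 to 5.44 FPKM in cultures. Library 1 was highest for each of these 4 genes and library 3 lowest, the order of these libraries in FPKM sum.

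Egr1, a zinc finger factor induced by growth factors, averaged 215 ± 94.1 FPKM in sorted DTR cells and 5.35 ± 0.466 FPKM in cultures, and Jun, the AP-1 partner of Fos, averaged 297 ± 97.9 FPKM in sorted DTR cells and 16 ± 1.44 FPKM in cultures (SD, n = 4 each). Jund, an AP-1 subunit that is not inducible in the same way, was lower, with 3.68 to 8.36 FPKM in sorted DTR cells and 91.9 to 144 FPKM in cultures, and averaged 139 FPKM in sorted Cre cells. In the second pair 24 of 27 tested immediate early genes were higher and 0 lower by limma, against 12.8% and 31.1% of all genes there. The 24 include Fos, Fosb and Egr1, which met the filter there through the sorted cells alone. Of the 34 listed genes 16 stayed under 1 FPKM in every 48 h culture. The filter set the direction of those tested among these 16. Of 19 tested heat shock genes 2 were higher and 1 lower, against 7.73% and 26.9% of all genes. On the TPM scale 13 were higher and 0 lower, against 41.2% and 9.23% of all genes. The chaperones Hspa1b and Dnaja1 were the higher ones, averaging 3.45 and 18.9 FPKM in sorted DTR cells and 0.788 and 8 FPKM in cultures. Hspa1b met the filter through the sorted cells alone, which set its direction. The labels do not say how long the cells were out of the animal before lysis.

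The 250 bases before the transcription start of 4 of these genes are printed because the genes moved together by 4.72 to 9.19 on the relative log2 scale. They are RefSeq sequences of build GRCm38.p6, each 5′ to 3′ in the direction of its gene, and the build differs from the mm9 coordinates of the expression table. Capitals mark TGACG on either strand (CGTCA where it lies on the other), the core of the cyclic AMP response element, and the CArG box bound by serum response factor. They are Fos at chr12:85473640-85473889 (plus strand), Fosb at chr7:19310046-19310295 (minus strand), Dusp1 at chr17:26508473-26508722 (minus strand) and Zfp36 at chr7:28379229-28379478 (minus strand).
Fos: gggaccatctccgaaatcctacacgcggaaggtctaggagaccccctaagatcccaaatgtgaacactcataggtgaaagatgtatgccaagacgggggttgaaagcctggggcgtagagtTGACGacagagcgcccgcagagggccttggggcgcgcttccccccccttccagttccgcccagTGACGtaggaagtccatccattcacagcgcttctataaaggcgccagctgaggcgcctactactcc
Fosb: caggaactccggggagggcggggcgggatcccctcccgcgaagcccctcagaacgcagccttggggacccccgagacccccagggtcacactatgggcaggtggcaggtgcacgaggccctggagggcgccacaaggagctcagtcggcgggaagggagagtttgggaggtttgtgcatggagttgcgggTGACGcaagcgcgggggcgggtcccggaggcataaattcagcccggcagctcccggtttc
Dusp1: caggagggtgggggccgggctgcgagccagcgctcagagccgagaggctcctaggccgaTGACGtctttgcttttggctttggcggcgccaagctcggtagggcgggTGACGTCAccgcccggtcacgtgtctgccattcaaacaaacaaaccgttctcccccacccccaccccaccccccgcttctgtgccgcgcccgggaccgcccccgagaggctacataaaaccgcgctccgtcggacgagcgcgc
Zfp36: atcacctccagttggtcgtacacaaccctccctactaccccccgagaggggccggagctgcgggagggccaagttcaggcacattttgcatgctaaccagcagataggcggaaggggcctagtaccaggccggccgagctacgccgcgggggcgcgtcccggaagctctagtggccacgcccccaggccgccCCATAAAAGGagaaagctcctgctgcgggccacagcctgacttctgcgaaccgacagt

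TGACG was found 2 times before Fos, 1 time before Fosb and 3 times before Dusp1, where 2 of the matches overlap on opposite strands as TGACGTCA, and not in the Zfp36 window. The CArG box was found 1 time, before Zfp36, and not in the other 3 windows. Bases outside these windows were not searched, so elements further from the start would be missed. Of the 34 immediate early genes 26 had an entry in the table, and TGACG lay in 14 of their windows (53.8%) and the CArG box in 2 (7.69%), against 17.8% and 1.47% of 32841 promoters. A match is a run of letters and was not tested for binding.

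Genes of the ribosome were lower in sorted DTR cells. All 58 tested cytosolic ribosomal protein genes were lower, 54 of them stable, with a relative median of -2.89. Rps7 had 30, 30.3, 15.4 and 17.1 FPKM in sorted DTR cells and 461, 490, 533 and 520 FPKM in cultures (relative log2 -4.03, SE 0.22, adjusted p = 5.28e-23). Rps2 averaged 45.1 FPKM in sorted DTR cells and 704 FPKM in cultures, and Rps28 averaged 58.8 FPKM in sorted DTR cells and 993 FPKM in cultures. These genes have many pseudogenes, so their reads may be split. Their transcripts are short, with a median of 634.5 bases against 1205 over all tested genes, and with a correction for length all 58 were still lower with a relative median of -2.74. In the second pair 53 of 58 were lower, with a smaller relative median of -1.11. The list summed to 2450 to 4380 FPKM in sorted DTR cells and 8340 to 13500 FPKM in sorted Cre cells. It summed to 35300 to 39300 FPKM in 6 h cultures and over the same range in 48 h cultures. The nuclear noncoding RNAs Neat1 and Malat1 were higher in sorted DTR cells. Neat1 had 234, 243, 139 and 161 FPKM in sorted DTR cells and 2.37 to 3.49 FPKM in cultures, and Malat1 had 291 to 407 FPKM in sorted DTR cells and 16.5 to 20 FPKM in cultures. Sorted Cre cells had 134 to 273 FPKM of Neat1, and the part of RNA quality or nuclear RNA in these differences was not tested.

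Lists of energy metabolism and protein handling held more lower than higher calls as deposited, and few of these calls were stable. As deposited 26.9% of all genes were lower and 7.73% higher. On the TPM scale all genes gave 41.2% higher and 9.23% lower. Of 39 respiratory chain and ATP synthase genes 26 were lower and 0 higher, 1 of them stable, and on the TPM scale 1 was lower and 2 were higher. Cox4i1, a subunit of cytochrome oxidase, averaged 131 FPKM in sorted DTR cells and 581 FPKM in cultures and lost its call under quantile normalization and the TPM scale, whereas Uqcrh, of complex III, averaged 51.0 FPKM in sorted DTR cells and 304 FPKM in cultures and was stable. Of 29 endoplasmic reticulum chaperone and secretory entry genes 13 were lower, 0 of them stable, and on the TPM scale 8 were higher and 0 lower. The lower ones as deposited included Xbp1, a factor of the unfolded protein response (23.8 FPKM in sorted DTR cells, 96.6 FPKM in cultures) and Calr, the chaperone calreticulin (21.1 FPKM in sorted DTR cells, 69.9 FPKM in cultures). Of 36 proteasome genes 16 were lower and 2 of them stable, while on the TPM scale 4 were higher and 2 lower. Psmb9, a subunit of the immunoproteasome, averaged 6.83 FPKM in sorted DTR cells and 55.0 FPKM in cultures. Of 25 sterol and fatty acid synthesis genes 11 were lower, 6 of them stable. Of the 25, 4 met the filter through the cultures alone and 1 through the sorted cells alone, and of the 20 others 8 were lower. On the TPM scale 5 of the 25 were higher and 6 lower. Lower as deposited were Fads1, a desaturase (1.55 FPKM in sorted DTR cells, 20.6 FPKM in cultures), and Acss2 (2.32 FPKM in sorted DTR cells, 21.8 FPKM in cultures). Sqle, squalene epoxidase (0.405 FPKM in sorted DTR cells, 7.42 FPKM in cultures), was lower too but met the filter through the cultures alone. Of 26 genes of the amino acid response 3 were higher and 10 lower, 3 stable each way (on the TPM scale 9 higher and 3 lower), with Phgdh, of serine synthesis, at 1.29 FPKM in sorted DTR cells and 16.2 FPKM in cultures, and Mthfd2, of mitochondrial folate metabolism, at 1.46 FPKM in sorted DTR cells and 10.4 FPKM in cultures. Of 22 glycolysis genes 1 was higher and 9 lower, and on the TPM scale 6 were higher and 2 lower. Of 43 lysosomal genes 1 was higher and 19 lower, but 2 of the 43 met the filter through the sorted cells alone. Of the 41 others 0 were higher and 19 lower. On the TPM scale 11 of the 43 were higher and 3 lower. Lamp1, a lysosomal membrane protein, was at 4.47 to 9.08 FPKM in sorted DTR cells and 68.3 to 105 FPKM in cultures.

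Most genes of mitosis were lower in sorted DTR cells than in 6 h cultures. Of 30 tested genes of mitosis and cytokinesis 9 met the filter through the cultures alone, and of the 21 others 18 were lower and 1 higher, against 26.9% and 7.73% of all genes. Cenpa, the centromeric histone, had 2.05, 2.01, 1.99 and 2.34 FPKM in sorted DTR cells and 86.4 to 92.0 FPKM in cultures (relative log2 -4.45, SE 0.18, adjusted p = 1.42e-27). Ube2c, which helps degrade cyclins, averaged 1.70 FPKM in sorted DTR cells and 43.6 FPKM in cultures, Birc5, survivin, averaged 2.28 FPKM in sorted DTR cells and 35.8 FPKM in cultures, and Plk1, a mitotic kinase, averaged 0.384 FPKM in sorted DTR cells and 9.92 FPKM in cultures. Plk1 met the filter through the cultures alone, which set its direction. Kif23, a motor of cytokinesis, was the 1 higher gene, with 11 to 19 FPKM in sorted DTR cells and 2.15 to 3.04 FPKM in cultures. Against 48 h cultures 8 of 22 tested genes were lower, where all genes gave 27.4%, and Cenpa averaged 14.3 FPKM there. Of 29 DNA replication genes 1 was higher and 5 lower, a share below the 26.9% of all genes, with Rrm2, of nucleotide reduction, at 1.55 FPKM in sorted DTR cells and 9.15 FPKM in cultures.

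Antigen presentation genes overlap the leukocyte markers by which the group was taken, so levels alone are given. Cd74, the invariant chain, was at 0.185 to 0.478 FPKM in sorted DTR cells and 18.8 to 21 FPKM in cultures, and H2-Ab1, a class II beta chain, was at 0.178 to 0.603 FPKM in sorted DTR cells and 11.6 to 13.5 FPKM in cultures. Of 27 interferon-stimulated genes 13 were lower, 7 of them stable. Of the 27, 3 met the filter through the cultures alone and 1 through the sorted cells alone. Of the 23 others 11 were lower, against 26.9% of all genes. On the TPM scale 9 of the 27 were higher and 9 lower, against 41.2% and 9.23% of all genes. Ifitm3, a membrane restriction factor, was at 2.76 to 5.15 FPKM in sorted DTR cells and 51.3 to 60.4 FPKM in cultures. Of 34 NRF2 and antioxidant genes 21 were lower and 3 higher (stable 8 and 3), but 3 of the 34 met the filter through the cultures alone. Of the 31 others 18 were lower and 3 higher, against 26.9% and 7.73% of all genes. On the TPM scale 11 of the 34 were lower and 4 higher. Nqo1, a quinone reductase, averaged 0.285 FPKM in sorted DTR cells and 14 FPKM in cultures, Gclm, of glutathione synthesis, averaged 0.497 FPKM in sorted DTR cells and 18.3 FPKM in cultures, Gpx1 averaged 145 FPKM in sorted DTR cells and 962 FPKM in cultures, and Ftl1, a ferritin chain, averaged 1640 FPKM in sorted DTR cells and 16300 FPKM in cultures. Nqo1 and Gclm met the filter through the cultures alone, which set their direction. Of 19 p53 target genes 14 were lower, 3 of them stable, but 4 of the 19 met the filter through the cultures alone. Of the 15 others 11 were lower, against 26.9% of all genes. On the TPM scale 3 of the 19 were lower and 2 higher. Examples were Phlda3 (1.17 FPKM in sorted DTR cells and 20.3 FPKM in cultures) and Bbc3 (2.84 FPKM in sorted DTR cells and 27.4 FPKM in cultures).

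**Figure D4:**
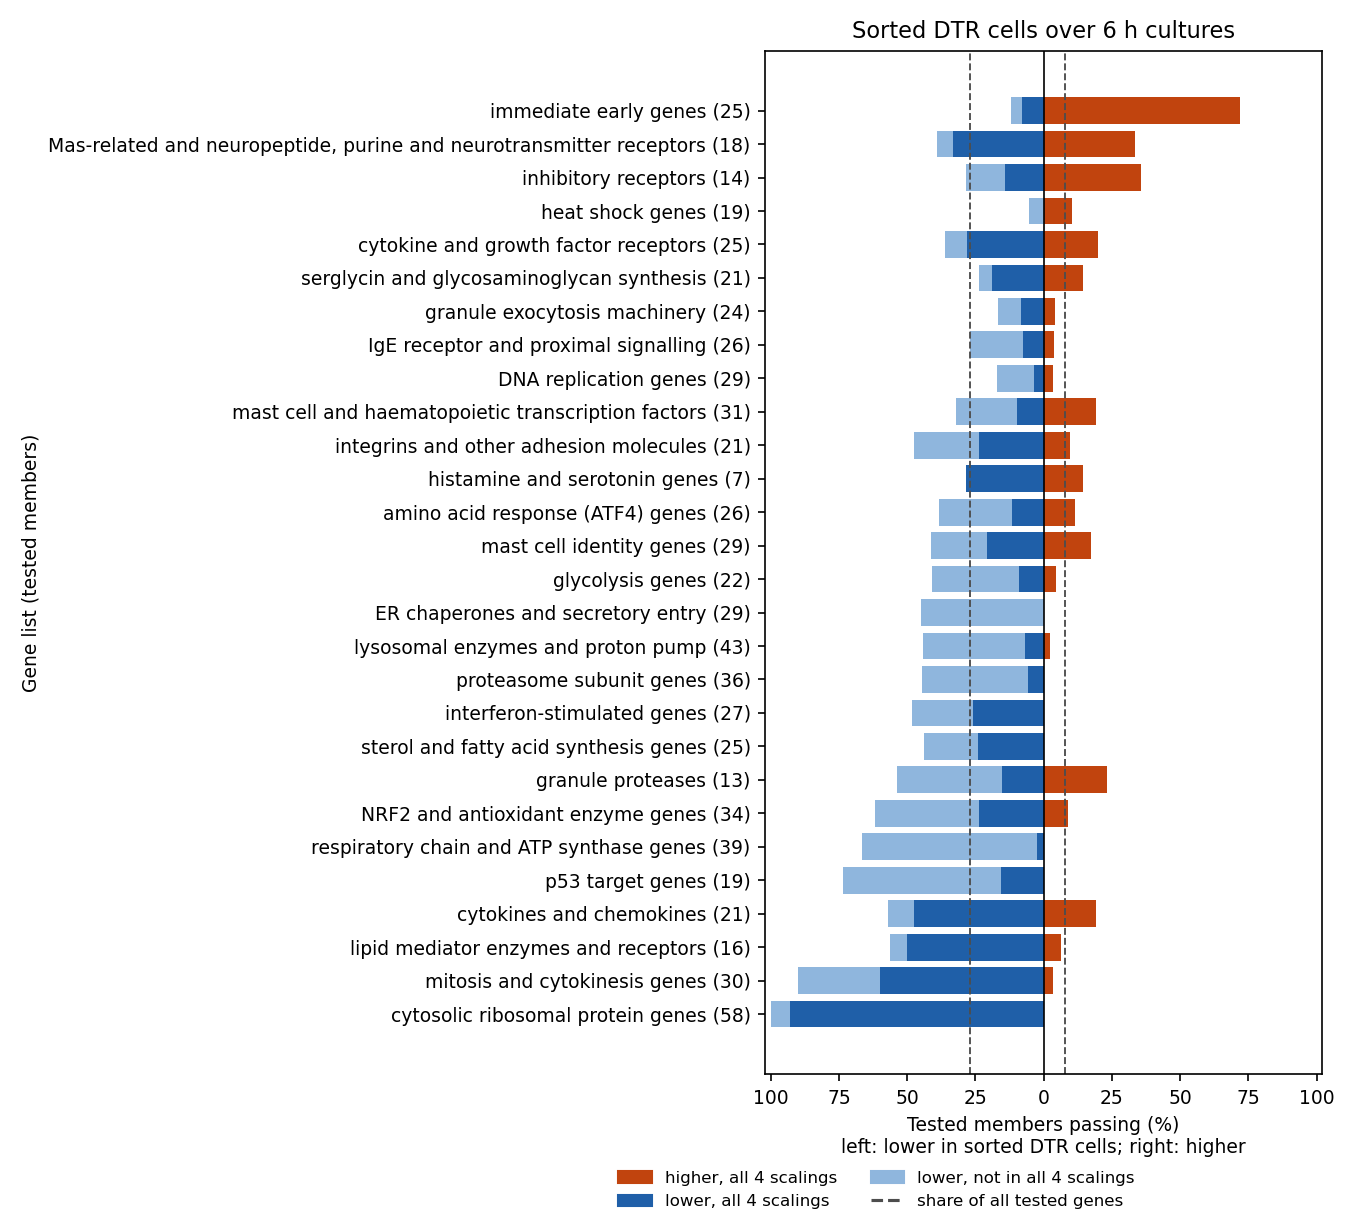
Share of tested members of each gene list that passed lower (left, blue) or higher (right, red) in sorted DTR cells, with calls stable under 4 scalings in the dark shade and the number tested in brackets. Dashed lines mark the shares of all tested genes, 26.9% lower and 7.73% higher. Members that met the filter through 1 group alone are included. Immediate early genes reach furthest to the right of the lists drawn and ribosomal protein genes to the left.

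Apart from the list counts, the naming rule gave the 15 largest changes each way, and most were near 0 in 1 of the groups. A gene under 1 FPKM throughout 1 group met the filter through the other group alone, so the filter set its direction. Clec10a, a galactose-binding lectin known from dendritic cells and macrophages (mm9 chromosome 11, 69980124 to 69984338), had 544, 492, 296 and 343 FPKM in sorted DTR cells and 0.321 to 0.470 FPKM in cultures. It belongs to the dendritic cell markers, so its levels are a description without a test. Colec11, a soluble collectin, was at 36.1 to 64.5 FPKM in sorted DTR cells and 0 to 0.0203 FPKM in cultures. Krt4, a keratin of stratified epithelia, was at 68.6 to 120 FPKM in sorted DTR cells and 0.362 to 0.454 FPKM in cultures, whereas keratinocyte markers summed to 2.30 to 14.8 FPKM in sorted DTR cells and 0.540 to 1.14 FPKM in cultures. Gfra2, the receptor for neurturin, was at 22.6 to 38.3 FPKM in sorted DTR cells and 0.0580 to 0.111 FPKM in cultures. Anxa2, a membrane-binding annexin, averaged 119 FPKM in sorted DTR cells and 3.73 FPKM in cultures, and Sapcd1 averaged 65.4 FPKM in sorted DTR cells and 1.16 FPKM in cultures. Atp6v0c-ps2 averaged 30 FPKM in sorted DTR cells and 3.35e-04 FPKM in cultures, and as a pseudogene may share reads with its parent.

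Among the largest falls, Ifitm1, an interferon-induced membrane protein (mm9 chromosome 7, 148153327 to 148155726), had 1.26, 0.233, 0.577 and 0.432 FPKM in sorted DTR cells and 1530, 1450, 1540 and 1540 FPKM in cultures (relative log2 -9.50, SE 0.20, adjusted p = 1.04e-37), but averaged 1740 FPKM in sorted Cre cells. Tspan13, a tetraspanin, was at 0.0168 to 0.692 FPKM in sorted DTR cells and 279 to 292 FPKM in cultures. Scin, an actin-severing protein of secretory cells, averaged 0.301 FPKM in sorted DTR cells and 221 FPKM in cultures. Gngt2, a G protein gamma subunit, averaged 0.0321 FPKM in sorted DTR cells and 90.3 FPKM in cultures. Spink4, a protease inhibitor, was listed at 0 in all 4 sorted DTR libraries and was at 70.7 to 80.8 FPKM in cultures. Ncf4, a subunit of the phagocyte NADPH oxidase, averaged 0.121 FPKM in sorted DTR cells and 55.7 FPKM in cultures. Scin, Tspan13 and Ncf4 were lower in the second pair as well. Gngt2 and Spink4 were too, but met the filter through the cultures alone in both pairs.

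Markers of other cells were low in sorted DTR cells, with exceptions by library. In bulk samples fewer cells of a type and less RNA per cell cannot be told apart. Fibroblast markers summed to 23.8 to 158 FPKM in sorted DTR libraries and 1.15 to 1.5 FPKM in cultures. Dcn, the matrix proteoglycan decorin, had 1.35, 3.59, 50.1 and 15.6 FPKM in sorted DTR cells, so library 3 held most of it, and Col3a1, a fibrillar collagen, had 0.299, 1.15, 34.5 and 3.70 FPKM. Pdgfrb, a growth factor receptor of fibroblasts and pericytes, had another order over the libraries, with 21.7, 23, 14 and 13.1 FPKM in sorted DTR cells and 0.0127 to 0.0502 FPKM in cultures. Krt14, a basal keratin, was at 6.44 FPKM in DTR library 2, at most 0.342 FPKM in the other 3 and listed at 0 in the cultures. Genes of the Schwann cell and neuron list also included ones that were high in a group: Pmp22 averaged 156 FPKM in sorted DTR cells and 32.6 FPKM in cultures, Ncam1 averaged 19.2 FPKM in sorted DTR cells and 0.436 FPKM in cultures, and Calca, the gene of the CGRP peptide, averaged 0.628 FPKM in sorted DTR cells and 62.0 FPKM in cultures.

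Leukocyte markers are a description here, since they chose the group. Macrophage and monocyte markers summed to 8.67 to 18.5 FPKM in sorted DTR cells and 52.7 to 63.5 FPKM in cultures, with Cx3cr1 at 0 to 0.0611 FPKM in sorted DTR cells and 13.5 to 16.6 FPKM in cultures. Dendritic cell markers summed to 298 to 544 FPKM in sorted DTR cells and 19.4 to 22.6 FPKM in cultures, and 13 of the 14, all but Clec10a, stayed under 1 FPKM in every sorted DTR library. Basophil markers summed to 193 to 319 FPKM in sorted DTR cells and 920 to 959 FPKM in cultures, where Prss34 was the highest. Neutrophil markers summed to at most 0.491 FPKM in sorted DTR cells and 1.03 FPKM in cultures. Eosinophil markers summed to 4.59 to 6.56 FPKM in sorted DTR cells and 2.78 to 2.99 FPKM in cultures, most of it Il5ra in sorted DTR cells. T and innate lymphoid markers summed to 13.9 to 30.4 FPKM in sorted DTR cells and 13.5 to 15.6 FPKM in cultures, with Nkg7 at 6.15 to 16.6 FPKM in sorted DTR cells and 0.640 to 0.914 FPKM in cultures. Peritoneal macrophage markers summed to 1.93 to 4.01 FPKM in sorted DTR cells and 15.7 to 17.7 FPKM in cultures, and B cell markers to 0.805 to 1.70 FPKM in sorted DTR cells and 3.29 to 4.29 FPKM in cultures. The part of such cells in the differences above was not tested.

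Sorted Cre cells over 6 h cultures gave 9.74% of genes higher and 29.9% lower, and sorted DTR cells over 48 h cultures 11% and 27.4%, each sharing libraries with the first comparison. The second pair gave 1084 genes higher (12.8%) and 2635 lower (31.1%) of 8476 tested. Of the 673 genes higher in sorted DTR cells 516 were also tested there, and 350 passed the same way and 4 the opposite way. The 350 are 67.8% of those 516 and 32.3% of the genes higher in that pair. Genes that met the filter through 1 group alone are included. Of the 2341 genes lower in sorted DTR cells 2242 were tested, and 1430 passed the same way (63.8% of those tested and 54.3% of that pair's lower genes) and 90 the opposite way. Mcpt4, Ctsg, Cma2, Hpgds, Ramp1, Fcgr2b and Ccl7 were higher in both pairs. Ctsg, however, had 37.7, 49.8, 51.5 and 285 FPKM in sorted Cre cells and 5.6 to 7.31 FPKM in 48 h cultures. It did not pass in sorted Cre cells over 6 h cultures, which had 34.7 to 39.2 FPKM. Slc6a4, Mrgprb8, Calcrl, Clec12b, Tnf and Fos were also higher in both pairs. In 1 pair or both, however, these met the filter through the sorted cells alone, which set their direction. Fcer1a, Tpsb2, Srgn, Tph1, Gzmb, P2rx7 and Il4ra were lower in both. Alox5, Ptgs1, Ltc4s and Cd300a were too, but in 1 pair or both they met the filter through the cultures alone. C5ar1 and Ifitm3 were lower in sorted DTR cells over 6 h cultures and higher in sorted Cre cells over 48 h cultures. C5ar1 met the filter of the first pair through the cultures alone. Ccl3, Ccl6 and Prss34 had the same pattern in level, but they belong to the basophil markers. As the sorted DTR group was taken for low transcripts of other leukocytes, their levels are a description without a test. Ms4a2 averaged 228 FPKM in sorted Cre cells against 287 FPKM in 48 h cultures and did not pass there.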

How the data were processed

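The values are FPKM as the authors deposited them, made with STAR and Cufflinks on mm9 per the submitters' processing notes, which name no versions. Sort markers and depth are not given in the sources used here. From them log2(FPKM + 1) was fitted with limma 3.58.1 in R 4.3.3 (mean-variance trend, two-sided), with Benjamini-Hochberg adjustment over autosomal genes that reached 1 FPKM in 4 or more libraries out of 8. The fit was tested on simulated data. Deviations of log2(FPKM + 1) from the group means correlated at -0.053 to 0 between same-numbered libraries. This cannot show whether numbers pair samples, and the main fit used no pairing. The members and gene lists were chosen with earlier results of these data known. Named genes were the 15 largest changes each way with no overlap and at least 5 FPKM in the higher group, 12 mast cell genes, and up to 4 members of each list in order of p. Calcrl, Ccl7, Fcgr2b, Hpgds, Il1rl1, Il4ra, Jun, Jund, Kif23, Malat1, Milr1, Mrgprb1, P2rx7, Ramp1 and Tnf were named after their values were seen. Some genes the rule admits are not reported here. Alternatives changed scaling, pseudocount, filter, model, libraries and groups.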

Additional observations from a re-analysis of the deposited data

Results flagged for a closer look

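In 250 groups of 4 libraries examined, 20 had a library far from the other 3 (8%), where chance gives about 1 in 20. In sorted DTR cells, library 1 was highest for Gzmb at 1.78 FPKM (next 0.519), Ccl3 at 0.0465 FPKM (next 0) and Malat1 at 407 FPKM (next 310). Library 2 was highest for Phgdh at 2.91 FPKM (next 0.916) and Krt14 at 6.44 FPKM (next 0.342). Library 3 was highest for Prss34 at 2.79 FPKM (next 0.281), Gngt2 at 0.129 FPKM (next 0) and Col3a1 at 34.5 FPKM (next 3.70). In 6 h cultures, library 1 was lowest for Gngt2 at 88.2, H2-Ab1 at 11.6, Gclm at 14.1 and Lamp1 at 68.3 FPKM. Library 2 was lowest for Ifitm1 at 1450 FPKM and highest for Phgdh at 17.5 FPKM. Library 3 was lowest for Mrgprb1 at 92.7 FPKM and highest for Il6ra at 0.014 FPKM. Library 4 was highest for Hs3st1 at 117 FPKM and Col3a1 at 0.0154 FPKM, and lowest for Pdgfrb at 0.0127 and Ncam1 at 0.325 FPKM.

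Genes lower in every sorted DTR library over 6 h cultures were higher in every sorted Cre library over 48 h cultures for Prss34 (log2 change 1.20 in the Cre pair), C5ar1 (3.66), Ccl3 (9.83), Ccl6 (6.78) and Ifitm3 (1.24). Prss34, Ccl3 and Ccl6 are basophil markers, and the sorted DTR group was taken for low transcripts of other leukocytes. These differences between the pairs were not tested.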

How the results depend on the processing

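Against 673 genes higher and 2341 lower, a pseudocount of 0.1 gave 1019 higher, and a pseudocount of 5 gave 213 and 1358 (1571 in all). A filter of 5 FPKM left 292 higher. Median centring gave 1199 and 1462, quantile normalization 1189 and 1214, and the TPM scale 3587 and 804. Sorted Cre cells over 48 h cultures gave 1084 higher. The TPM scale with 48 h cultures, added after seeing the data, gave 3922 and 763 (4685 in all). Leaving out 1 library gave 2895 to 3188 in all, 601 to 771 higher and 2124 to 2587 lower. In the second pair, a pseudocount of 5 gave 420 and 1452 (1872 in all), the 5 FPKM filter 505 higher, quantile normalization 1402 lower, the TPM scale 2733 and 804, and leaving out 1 library 3684 to 3787 in all, 1065 to 1146 higher and 2557 to 2722 lower. A replicate block gave 3014 genes and changed no call count. Direction turned for Kit under quantile normalization (0.62), the TPM scale (0.29) and the TPM scale with 48 h cultures (1.0), and for Cma1 under the same 3 (0.68, 0.10 and 0.65), with Gata2 at 0.72 under the last. In sorted Cre cells over 6 h cultures it turned for Ifitm1 (0.13), Mrgprb2 (-1.0), Mrgprb1 (-0.35), C5ar1 (1.37), Nfe2 (0.16), Ccl3 (7.22), Ccl6 (6.69), Jund (0.10) and Ifitm3 (0.88). In sorted Cre cells over 48 h cultures it turned for Prss34 (1.20), Ms4a2 (-0.34), Gata2 (0.57), C5ar1 (3.66), Nfe2 (0.52), Ccl3 (9.83), Ccl6 (6.78), Jund (0.57) and Ifitm3 (1.24). These are log2 changes as fitted, and the cause was not tested. Kit lost its call without DTR library 3 (-0.96) or 4 (-0.92). Absolute depth is unknown, so no limit for genes listed at 0 is given.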
